A study of Mus musculus with 18 samples.

Results

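Ovgp1, Pax8, Pax2, Wfdc2, Muc1, Muc16, Sox17 and Emx2 are genes of the secretory epithelium of the oviduct. These 8 were taken by name from 30172 gene symbols, and all 8 were found in each of the 18 libraries. RNA was measured in whole ovaries of wild-type F1 females of C57BL/6J dams, with 3 libraries for each of 6 groups, at postnatal day 3, 7 or 21 (Pd3, Pd7, Pd21). F1-HHcy females were born to dams given chow with 3% methionine, which raises homocysteine (hyperhomocysteinemia, HHcy), and F1-Control females to dams on normal chow. According to the labels the diet began 4 weeks before mating, while the study's methods state a longer period, and it went on through gestation and lactation. Sires ate normal chow and the F1 females were not treated themselves. Pd3 and Pd7 formed batch 1 and Pd21 batch 2, so each comparison of diets lay within a batch, and age cannot be told apart from batch where Pd21 is set against another day. The sources used here do not say whether a library held 1 pup or several. Nor do they give the number of dams or litters behind each group, although the diet was given to the dams. The p-values therefore measure the spread between these libraries, some of which may come from littermates.

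The oviduct lies beside the ovary and joins the bursa that encloses it. Its lining is made of secretory cells, which release proteins such as oviductin into the lumen, and of multiciliated cells, which move the egg. Both arise from the Müllerian duct, whose epithelium depends on transcription factors of the PAX, EMX and SOX families. Several of the 8 genes are not limited to this epithelium: Emx2 is also a gene of the developing gonad, Sox17 is active in blood vessels, Muc16 is active in the mesothelium that covers abdominal organs, and Pax2 and Pax8 are active in kidney tubules.

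All levels are FPKM, the number of fragments corrected for gene length and for library depth, so genes can be compared per length. Libraries held from 33630641 to 39399281 fragments on genes. In the diet comparison of each age, a gene entered if 3 or more of the 6 libraries reached 1 FPKM, and was tested with limma on log2(FPKM + 1), which understates the change of low genes, and a gene is called higher or lower here with a Benjamini-Hochberg adjusted p under 0.05 over all genes tested. Pax2 did not pass this filter at any age, and Muc1 did not pass it at Pd7. Pax8 and Muc1 passed it at Pd21 only through the F1-Control libraries, since all 3 F1-HHcy libraries lay under 1 FPKM, so a count over the tested genes is not a count over all 8.

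Promoters are shown for the 3 genes called lower in F1-HHcy ovaries at Pd21, and for Emx2, whose level overlapped between the diets at that age. Each is the 250 bases before the transcription start in RefSeq (GRCm38.p6, the same build as the submitters' GRCm38), read in the direction of transcription. Capitals mark matches, on either strand, to the letters ACAAT, the core of SOX sites, TATAAA, known as the TATA box, CCAAT, a site of the factor NF-Y, and AGGTCA, a half-site of nuclear receptors. No match overlapped another.
Ovgp1 (chr3:105973552-105973801, plus strand): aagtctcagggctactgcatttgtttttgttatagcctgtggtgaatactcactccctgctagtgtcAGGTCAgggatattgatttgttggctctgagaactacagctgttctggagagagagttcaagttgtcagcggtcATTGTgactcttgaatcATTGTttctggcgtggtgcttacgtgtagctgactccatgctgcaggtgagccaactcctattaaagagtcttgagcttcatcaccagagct
Pax8 (chr2:24475600-24475849, minus strand): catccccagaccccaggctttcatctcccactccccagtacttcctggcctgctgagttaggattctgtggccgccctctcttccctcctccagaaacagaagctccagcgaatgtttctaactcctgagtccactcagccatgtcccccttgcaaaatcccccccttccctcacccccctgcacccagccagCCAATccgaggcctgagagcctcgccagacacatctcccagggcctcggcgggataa
Muc1 (chr3:89228806-89229055, plus strand): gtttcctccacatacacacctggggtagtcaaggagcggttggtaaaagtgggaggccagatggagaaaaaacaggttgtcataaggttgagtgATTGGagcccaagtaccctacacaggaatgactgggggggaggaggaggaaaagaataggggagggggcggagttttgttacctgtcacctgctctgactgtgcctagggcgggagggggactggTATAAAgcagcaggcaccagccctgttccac
Emx2 (chr19:59458440-59458689, plus strand): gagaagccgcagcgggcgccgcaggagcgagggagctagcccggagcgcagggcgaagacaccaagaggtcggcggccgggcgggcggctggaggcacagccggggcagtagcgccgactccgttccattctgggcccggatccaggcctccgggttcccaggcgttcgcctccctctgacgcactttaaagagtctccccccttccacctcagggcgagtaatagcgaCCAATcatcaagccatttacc
The Ovgp1 window held 2 matches to the SOX core and 1 to the half-site, the Pax8 window 1 NF-Y site, the Muc1 window 1 TATA box and 1 NF-Y site, and the Emx2 window 1 NF-Y site. Of 32851 RefSeq promoter windows of this length, 27.7% held the SOX core, 12.4% the TATA box, 33.8% the NF-Y site and 14.0% the half-site. None of the 4 sets of letters was present in all 3 windows of the called genes. A match is a description of letters and not a measured binding site. Promoters were matched for 7 of the 8 genes, all except Sox17.

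Ovgp1 encodes oviductin, a glycoprotein secreted by the non-ciliated cells of the oviduct. Its gene spans bases 105973802 to 105987423 of chromosome 3. In the Pd21 F1-Control libraries it stood at 216, 37.5 and 365 FPKM, and in the Pd21 F1-HHcy libraries at 2.10, 0.370 and 1.12 FPKM. All 3 controls lay above all 3 F1-HHcy libraries, and the lowest control, replicate 2, was still 31.4 times the F1-HHcy mean. The controls also differed widely among themselves, with replicate 3 at 9.73 times the level of replicate 2. The means were 206 ± 164 and 1.19 ± 0.867 FPKM (SD, n = 3 each), a ratio of 173, and the difference on the log2(FPKM + 1) scale was -6.13 (SE 0.73, adjusted p = 0.00541). Ovgp1 was called lower in F1-HHcy ovaries in each of the 6 fits that left out 1 library, with differences from -7.08 to -5.46.

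Outside the Pd21 controls Ovgp1 was low. At Pd3 the controls held 1.14, 1.58 and 1.97 FPKM and the F1-HHcy libraries 0.929, 1.04 and 2.86 FPKM, and at Pd7 the controls held 0.899, 0.795 and 1.03 FPKM. The Pd7 F1-HHcy libraries held 12.1, 1.91 and 1.28 FPKM, so that all 3 lay above the controls and replicate 1 lay apart from the other two. That difference of 1.22 on the log2 scale (SE 0.52, adjusted p = 0.146) was not called, and it was 0.44 without replicate 1. In the order of group means the Pd21 controls stood alone above all other groups, and the other 5 group means, from 0.907 to 5.11 FPKM, followed each other with overlap between neighbours. In the Pd21 controls the values rested on 21249, 3601 and 36058 fragments, and in the Pd21 F1-HHcy libraries on 191, 36 and 111.

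Wfdc2 encodes a small secreted protein of the whey acidic protein family, made by Müllerian and airway epithelia. It lies on chromosome 2, bases 164562715 to 164568510. At Pd21 the control libraries held 23.3, 11.0 and 87.6 FPKM and the F1-HHcy libraries 1.91, 1.46 and 5.16 FPKM. The groups did not overlap, and replicate 3 was the highest in both. The ratio of the means was 14.3, with a log2 difference of -3.07 (SE 0.66), but the adjusted p of 0.0637 did not pass. Leaving out F1-Control replicate 2 brought the adjusted p to 0.00885, while the other 5 fits that left out 1 library gave 0.0737 to 0.239. It was 0.0129 in 1 model of all 18 libraries, but 0.289 without the filter on low values and 0.264 with limma-voom on the recovered fragments. Of 7 other settings of the fit, 2 called Wfdc2. Wfdc2 was not called on the earlier days, with log2 differences of -0.31 at Pd7 (adjusted p = 0.301) and 0.42 at Pd3 (adjusted p = 0.767), and the Pd3 value turned to -0.40 without F1-HHcy replicate 3. At Pd3, F1-HHcy replicate 3 held 15.9 FPKM and the other 5 libraries from 1.16 to 6.34 FPKM.

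The mucins of the list are membrane proteins that coat the apical surface of epithelia. Muc1 (chromosome 3, bases 89229056 to 89233381) held 4.58, 2.28 and 6.81 FPKM in the Pd21 controls and 0.556, 0.613 and 0.837 FPKM in the Pd21 F1-HHcy libraries. It was called lower, by -1.65 on the log2 scale (SE 0.30, adjusted p = 0.0285) and a ratio of means of 6.81, with no overlap. The call held in 1 of the 6 fits that left out 1 library, the one without F1-Control replicate 2, and the adjusted p reached 0.131 without F1-Control replicate 1. With limma-voom on the recovered fragments, on the same genes, it was 0.0509. Muc1 in the Pd21 controls also lay above the other groups, which ranged from 0.529 to 1.72 FPKM.

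Muc16 (chromosome 9, bases 18495445 to 18674821), encodes the mucin known as CA125. It held 1.50, 2.87 and 1.63 FPKM in the Pd21 controls and 2.12, 0.464 and 1.23 FPKM in the Pd21 F1-HHcy libraries. The groups overlapped, and the log2 difference of -0.44 (SE 0.30, adjusted p = 1.00) was not called. The highest control for Muc16 was replicate 2, which was the lowest control for Ovgp1, Pax8, Wfdc2, Muc1, Sox17 and Emx2. Its group means were highest at Pd3 and Pd7, between 4.51 and 5.59 FPKM, with overlapping neighbours throughout.

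Pax8 and Pax2 encode paired-box transcription factors of the Müllerian duct and of the nephric lineage. Pax8 (chromosome 2, bases 24420551 to 24475599) held 7.75, 3.25 and 12.5 FPKM in the Pd21 controls and 0.486, 0.757 and 0.415 FPKM in the Pd21 F1-HHcy libraries. It was called lower, by -2.36 (SE 0.37, adjusted p = 0.0149), with a ratio of means of 14.2 and no overlap. In the fits that left out 1 library the difference stayed between -2.81 and -1.98, and the call held in 2 of 6, those without F1-Control replicate 2 or replicate 3. The other 4 gave adjusted p-values from 0.0532 to 0.0784.

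Pax8 was the only one of the 8 genes called on a second day. At Pd7 the controls held 4.30, 2.37 and 2.87 FPKM and the F1-HHcy libraries 1.45, 0.880 and 0.735 FPKM. These groups did not overlap either, and the log2 difference was -1.04 (SE 0.21, adjusted p = 0.0145). Without F1-HHcy replicate 2 or replicate 3 the adjusted p was 0.0504 and 0.0555, and it was 0.0955 without the filter on low values and 0.0738 in 1 model of all 18 libraries. At Pd3 the diets overlapped, with 2.48, 5.48 and 5.03 FPKM in the controls and 1.78, 5.04 and 5.06 FPKM in F1-HHcy. The Pd21 controls overlapped with those of Pd3, and the Pd21 control replicate 2 was 1.02 times the Pd7 control mean.

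Pax2 (chromosome 19, bases 44746601 to 44838269) was low throughout and was not tested. In the Pd21 controls it held 0.689, 0.782 and 1.44 FPKM and in the Pd21 F1-HHcy libraries 0.750, 0.333 and 0.624 FPKM, with overlap. Both Pd21 groups nevertheless lay above the controls of Pd3 and Pd7, which did not exceed 0.0680 FPKM. It was at 0 in 1 library, F1-Control Pd7 replicate 2, where 0 fragments allow up to 3 by counting error alone. At Pd7 the F1-HHcy libraries held 0.0714, 0.0790 and 0.436 FPKM, all above the controls, from 11, 12 and 73 fragments.

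Sox17 (chromosome 1, bases 4490928 to 4497426) encodes an HMG-box transcription factor of oviduct epithelium and endothelium. At Pd21 the controls held 2.73, 2.15 and 7.81 FPKM and the F1-HHcy libraries 2.35, 0.897 and 1.05 FPKM. F1-HHcy replicate 1 lay above control replicate 2, and the difference of -0.998 (SE 0.395, adjusted p = 0.594) was not called. At Pd3 the direction was the other way, with 0.514, 0.847 and 1.03 FPKM in the controls and 1.34, 1.50 and 1.13 FPKM in F1-HHcy. The Pd3 groups did not overlap, but the difference of 0.38 (SE 0.17, adjusted p = 0.231) was not called.

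Emx2 (chromosome 19, bases 59458690 to 59465357) encodes a homeobox transcription factor needed for the urogenital tract and gonad. Its Pd21 levels were 46.2, 30.1 and 44.0 FPKM in the controls and 62.8, 22.9 and 30.4 FPKM in F1-HHcy, and the highest and the lowest value were both in F1-HHcy libraries. The log2 difference was -0.15 (SE 0.34, adjusted p = 1.00) and turned to 0.15 without F1-HHcy replicate 2. Emx2 was the most abundant of the 8 in every group but the Pd21 controls, where Ovgp1 and, through replicate 3 alone, Wfdc2 had higher means. In control ovaries it was lower at Pd7 than at Pd3, by -0.94 on the log2 scale (SE 0.18, adjusted p = 0.0103), from 49.0, 59.7 and 44.2 to 31.4, 20.6 and 26.8 FPKM. Without F1-Control Pd3 replicate 2, the highest library, the adjusted p was 0.0523, and without the filter it was 0.0543. The F1-HHcy ovaries held 32.8, 33.4 and 35.7 FPKM at Pd3, below all 3 controls, with a log2 difference of -0.56 (SE 0.13, adjusted p = 0.0611) that fell short of the threshold.

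**Figure D1:**
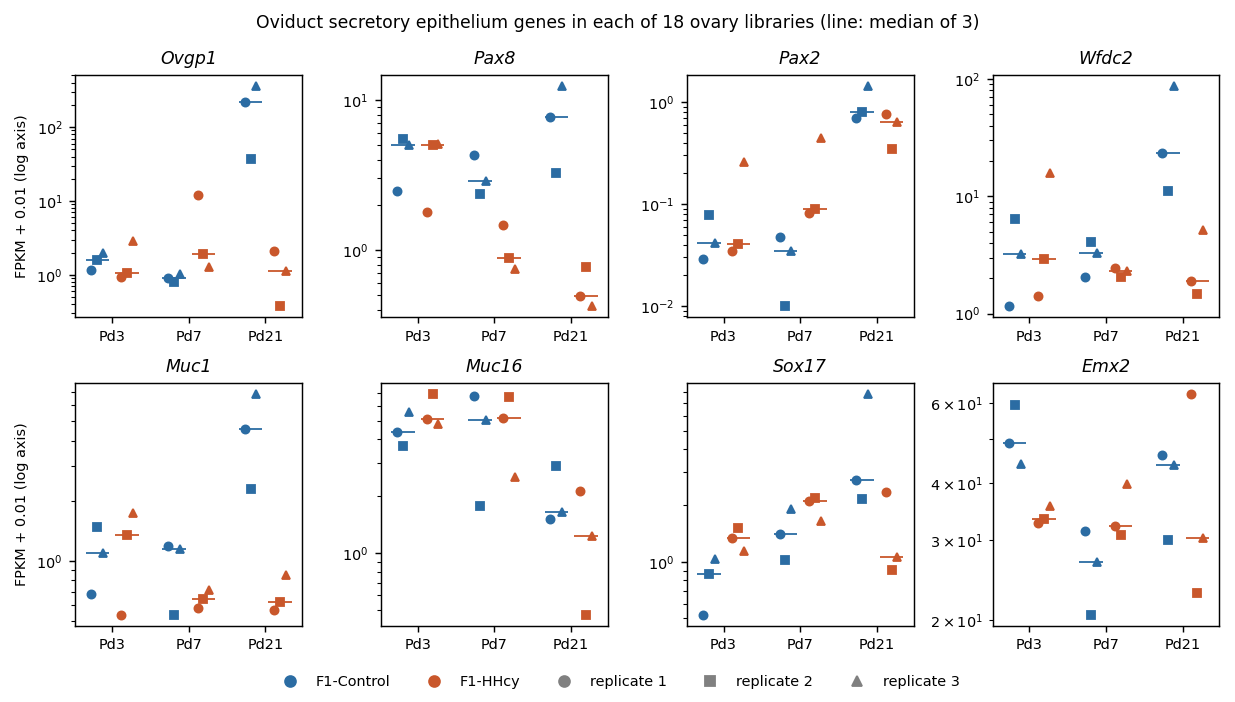
FPKM + 0.01 on a log axis for each of the 8 genes in the 18 libraries, by age and diet, with a line at the median of 3 libraries and 1 symbol per replicate number. The Pd21 F1-Control libraries stand above all others for Ovgp1 (37.5 to 365 FPKM) and Muc1 (2.28 to 6.81 FPKM), while Muc16 and Emx2 overlap between the diets at Pd21.

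Counted together at Pd21, 3 of the 7 tested genes (Ovgp1, Pax8 and Muc1) were called lower in F1-HHcy ovaries and none was called higher, against 2.23% of all 13350 genes tested that were called lower. All 7 log2 differences were below 0, with a median of -1.65 where the median over all genes tested was -0.01. The F1-HHcy libraries lay below all control libraries for 4 of the 7 (the 3 called genes and Wfdc2), against 8.61% of all genes tested. With a looser criterion, an unadjusted p under 0.05 and a log2 difference above 0.58 in size, 5 of the 7 were lower (Wfdc2 and Sox17 added), against 5.06% of all genes. Pax8 and Muc1 passed the filter only through the controls, and the 8 genes were chosen with earlier results of these data known. These counts describe the genes and give no separate support. Without the filter on low values, none of the 8 was called, and Ovgp1 then had an adjusted p of 0.0927. In that fit 4 of the 8 had an unadjusted p under 0.05, and limma-voom on the recovered fragments without the filter called 3.

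At Pd7, 1 of 6 tested genes (Pax8) was called lower, against 5.98% of all genes tested, and none was called higher. At Pd3 none of 7 was called in either direction, against 1.43% of all genes called lower. Emx2 alone of the 7 had an unadjusted p under 0.05 in limma, and limma-voom called none either. From Pd3 to Pd7 only Emx2 was called among 7 genes tested in the controls, against 7.59% of all genes called lower at Pd7. In F1-HHcy none of 6 was called over the same interval, where limma called no gene of 13257 at all and limma-voom none of these 6, and Pax8 and Sox17 had an unadjusted p under 0.05.

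The diet difference was tested for a change with age in 1 model of all 18 libraries and 14607 genes. Between Pd21 and Pd7 it differed for 2 of the 7 tested genes, Ovgp1 by -7.35 (SE 0.95, adjusted p = 1.44e-04) and Muc1 by -1.42 (SE 0.38, adjusted p = 0.0456), against 2.90% of all genes that differed in this direction. Between Pd21 and Pd3 it differed for 4, Ovgp1 by -6.09, Pax8 by -2.22, Wfdc2 by -3.49 and Muc1 by -1.71 (adjusted p = 7.90e-04, 0.0194, 0.0486 and 0.0137), against 3.78% of all genes. These comparisons share the Pd21 libraries. Of the 18 fits that each left out 1 library, all called Ovgp1 in both comparisons, but limma-voom on the recovered fragments without the filter did not call it between Pd21 and Pd3 (-7.12, adjusted p = 0.0822). In the fits that left out 1 library, Muc1 kept its Pd21 against Pd7 call in 4 and Wfdc2 its Pd21 against Pd3 call in 4. Pax8 was not called between Pd21 and Pd7 (-1.32, adjusted p = 0.177). Age and batch cannot be told apart in these tests.

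**Figure D2:**
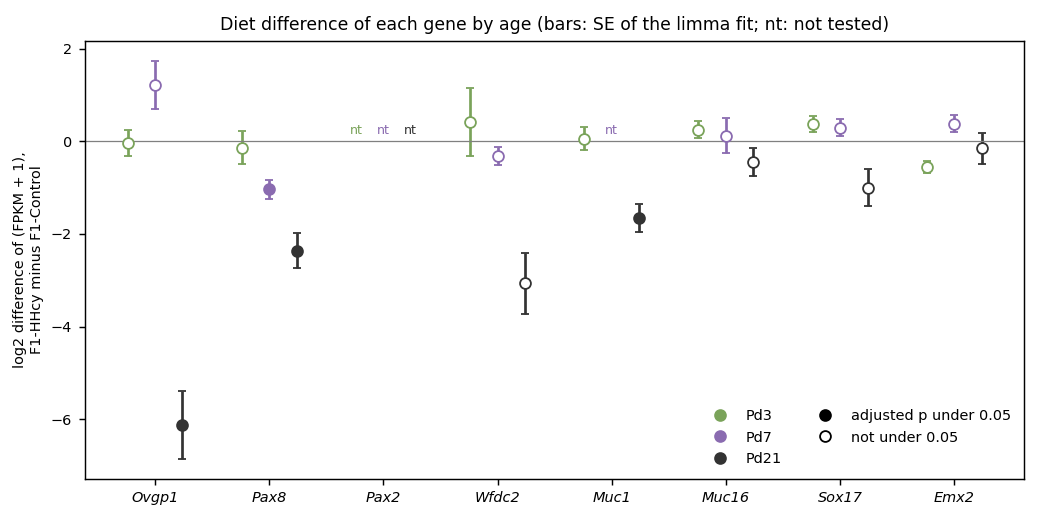
Difference of log2(FPKM + 1) between F1-HHcy and F1-Control for each of the 8 genes at Pd3, Pd7 and Pd21, with the SE of the limma fit as bars, filled points for an adjusted p under 0.05 and "nt" where a gene was not tested. Ovgp1 at Pd21 lies at -6.13, Pax8 is filled at both Pd7 and Pd21, and Pax2 was tested at no age.

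The 3 Pd21 control libraries were not alike. Replicate 3 was highest for Ovgp1, Pax8, Pax2, Wfdc2, Muc1 and Sox17, and replicate 2 lowest for Ovgp1, Pax8, Wfdc2, Muc1, Sox17 and Emx2. From the lowest to the highest control the span was 9.73 times for Ovgp1, 7.93 for Wfdc2, 3.84 for Pax8, 3.62 for Sox17 and 2.99 for Muc1, but 1.54 for Emx2. The summed level of the 8 genes was 303, 90.0 and 527 FPKM in the control replicates 1 to 3 and 73.1, 27.8 and 40.8 FPKM in the F1-HHcy replicates. The sum of the lowest control was thus above the highest F1-HHcy library. Ovgp1 alone held 216, 37.5 and 365 FPKM of the control sums. Emx2 held 62.8, 22.9 and 30.4 FPKM of the F1-HHcy sums. The gap between the sums therefore does not describe the other genes of the 8. In bulk RNA, fewer cells of a type and less RNA per cell cannot be told apart.

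Levels of other cell types' genes are given beside these values because the ovary was taken whole and the oviduct lies against it. Multiciliated cells share the oviduct lining with the secretory cells. Foxj1, their master transcription factor, held 99.1, 20.4 and 49.7 FPKM in the Pd21 controls and 0.371, 0.441 and 0.248 FPKM in the Pd21 F1-HHcy libraries, a log2 difference of -5.14 (SE 0.47, adjusted p = 0.00201). Of the 20 genes of the multiciliated list, 16 were tested at Pd21 and 14 were called lower, against 2.23% of all genes tested, with a median of -2.03. In the F1-HHcy libraries 15 of the 20 lay under 1 FPKM in all 3, so most of these genes passed the filter on low values only through the controls, and the count gives no separate support. The radial spoke gene Rsph1 followed Foxj1, with 73.2, 20.8 and 36.4 FPKM in the controls and 5.50, 2.87 and 2.90 FPKM in F1-HHcy. The exception among its abundant genes was Ccno, which encodes a cyclin and held from 69.9 to 98.9 FPKM in all 6 libraries. Its level did not follow Foxj1. Ccno thus made up most of the summed level of this list in F1-HHcy, which was 85.2 to 115 FPKM.

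Ovgp1 and Foxj1 did not rank the controls alike, though replicate 2 was lowest for both. Ovgp1 was highest in replicate 3 and Foxj1 in replicate 1, so that Ovgp1 was 2.18, 1.84 and 7.36 times Foxj1 in control replicates 1 to 3. At Pd7, F1-HHcy replicate 1, which had the highest Ovgp1 of the batch 1 libraries (12.1 FPKM), held 1.21 FPKM of Foxj1, the highest of the 6 Pd7 libraries, against 0.740, 0.635 and 0.861 FPKM in the Pd7 controls. The other Pd7 F1-HHcy libraries held 0.0646 and 0.156 FPKM of Foxj1.

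**Figure D3:**
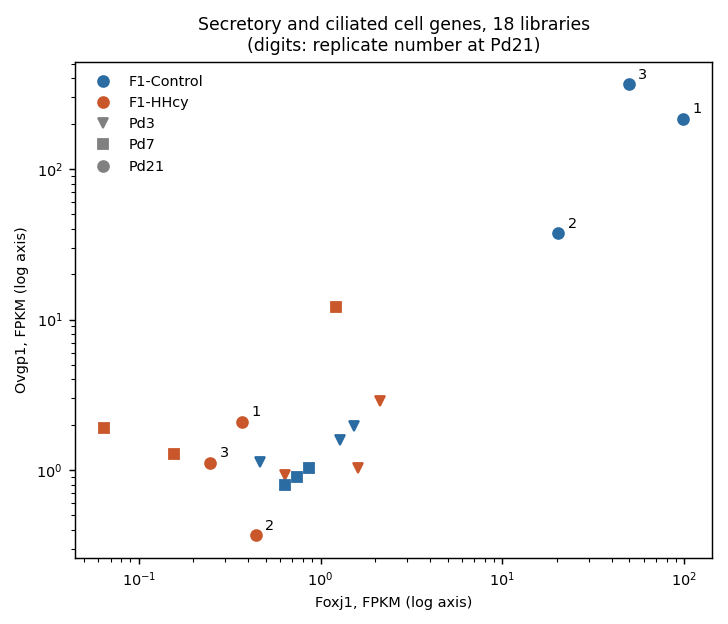
Ovgp1 against Foxj1 in FPKM, both on log axes, in the 18 libraries, coloured by diet and shaped by age, with replicate numbers at Pd21. The 3 Pd21 F1-Control libraries lie apart from the other 15, at 20.4 to 99.1 FPKM of Foxj1 and 37.5 to 365 FPKM of Ovgp1.

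A list of 21 further oviduct and Müllerian duct genes had 10 tested at Pd21, with a median of -0.58. Of these 2 were called lower, against 2.23% of all genes tested. The called genes were Lcn2 and Ltf, which encode secreted iron-related defence proteins, and Ltf was named after its values were seen. Lcn2 held 28.9, 10.1 and 31.5 FPKM in the controls and 1.95, 2.07 and 4.26 FPKM in F1-HHcy (adjusted p = 0.0151). Ltf held 18.4, 5.20 and 10.8 FPKM against 0.0809, 0.104 and 0.204 FPKM (adjusted p = 0.00406), and so passed the filter only through the controls. The abundant Wnt4, which also acts in the ovary itself, and the folate receptor gene Folr1 overlapped between the diets, at -0.03 and 0.15. Lhx1 was at 0 in all 3 F1-HHcy libraries and under 1 FPKM in the controls.

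Of 22 general epithelial genes, which mark any lining or covering layer, 20 were tested at Pd21 and 5 were called lower, against the same 2.23% of all genes, with a median of -1.20. In the F1-HHcy libraries 5 of the 22 lay under 1 FPKM in all 3. Some of the tested genes thus passed the filter only through the controls, and the count gives no separate support. Krt19, a keratin of simple epithelia, held 118, 107 and 156 FPKM in the controls and 62.0, 23.6 and 66.7 FPKM in F1-HHcy, without overlap but with an adjusted p of 0.140. Krt8 (adjusted p = 0.103) and the protease inhibitor gene Spint2 (adjusted p = 0.106) also lay without overlap. At Pd7 this list had 8 of 17 tested genes called lower and 1 called higher, against 5.98% of all genes called lower on that day.

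Genes of the ovarian surface epithelium, the layer that covers the ovary, had none of 10 tested genes called at Pd21 in either direction by limma. Their median was -0.55. With an unadjusted p under 0.05 and a difference above 0.58 in size, 5 were lower, against 5.06% of all genes. Upk3b held 99.8, 89.5 and 109 FPKM in the controls and 59.6, 37.7 and 69.7 FPKM in F1-HHcy (adjusted p = 0.146), and Wt1 and Aldh1a2 overlapped. Smooth muscle genes had 1 of 9 called lower, Des, against 2.23% of all genes tested, and their abundant genes Acta2, Tagln and Actg2 were not called. The control with the highest smooth muscle sum was replicate 2, at 1092 FPKM against 532 and 605 FPKM, which was the control with the lowest Ovgp1.

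Adipocyte genes differed between the control libraries too. Their sum was 60.5, 27.4 and 310 FPKM in the controls and 47.1, 11.7 and 6.35 FPKM in F1-HHcy. None of 5 tested genes was called by limma. An unadjusted p under 0.05 was found for 4 of them, and for 914 of all 13350 genes tested. Fabp4, the fatty acid carrier of adipocytes, reached 227 FPKM in control replicate 3, the library with the highest Ovgp1, against 39.1 and 14.7 FPKM in the others. Adipoq and Retn, which encode hormones of fat tissue, were also highest there, at 33.2 and 30.4 FPKM.

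The kidney tubule list was examined because Pax8 and Pax2 are kidney genes as well. Of its 8 genes with values, 6 lay under 1 FPKM in all 3 Pd21 controls, and Nphs1 was at 0 in all 6 libraries. Only 1 of them was tested at Pd21, and it was not called (log2 difference 0.29). Cdh16, a cadherin of tubule epithelium, held 0.937, 0.595 and 9.65 FPKM in the controls, again highest in replicate 3, and 0.0752, 0.274 and 0.0306 FPKM in F1-HHcy. Aqp2, a water channel of the collecting duct, did not exceed 0.960 FPKM in the 6 libraries.

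Genes of the ovary proper were abundant in both diets. None of 10 ovarian somatic and oocyte genes was called at Pd21 by limma and none had an unadjusted p under 0.05, with a median of -0.01. The oocyte genes Gdf9 and Zp3 held 483.7, 395 and 303 FPKM and 573, 340.3 and 454 FPKM in the controls, and 479, 386 and 549.9 FPKM and 566, 350.0 and 471 FPKM in F1-HHcy. The granulosa cell gene Inha likewise overlapped between the diets. Defining genes of the labelled tissue were thus present in all 6 libraries.

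Whether the companion lists moved as sums was tested over libraries with a two-sided exact permutation test, whose smallest possible p with 3 against 3 libraries is 0.1. The controls lay at 2.90 times the F1-HHcy mean for multiciliated genes, 2.31 times for general epithelial genes and 1.40 times for surface epithelium genes, each with an exact p of 0.1. Ccno made up most of the multiciliated sum in F1-HHcy, so that ratio does not describe the other genes of the list. The further oviduct list (ratio 1.70), smooth muscle (1.53) and adipocyte genes (6.11) each gave an exact p of 0.2. Kidney tubule (2.23) and ovarian genes (0.916) gave an exact p of 0.3. Cdh16 made up most of the kidney tubule sum of 11.4 FPKM in control replicate 3, so that ratio does not describe the other genes of the list. The part of multiciliated, epithelial or adipocyte tissue in the differences of the 8 genes was not tested.

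**Figure D4:**
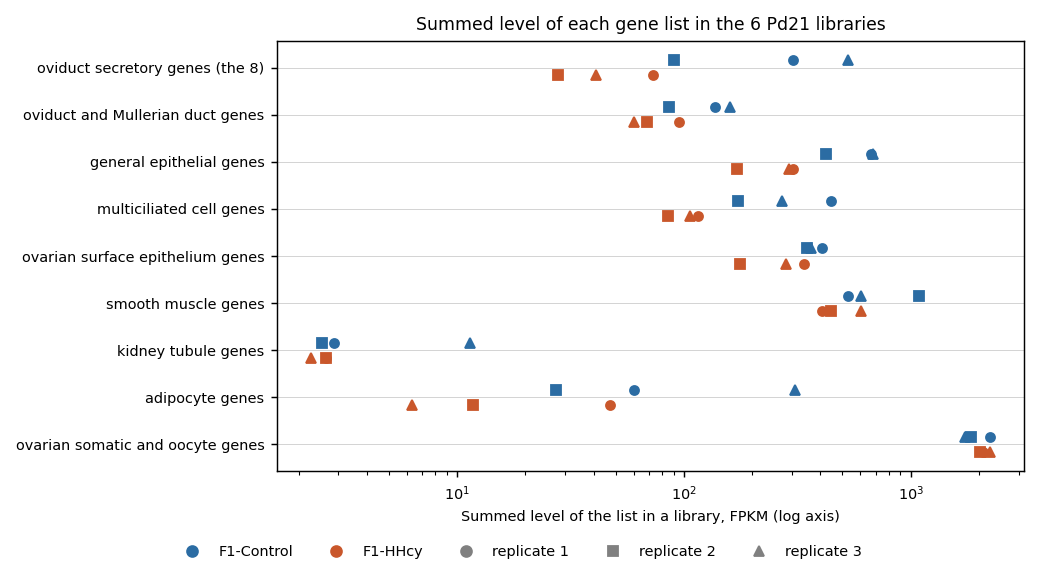
Summed FPKM of each gene list, on a log axis, in the 3 F1-Control and 3 F1-HHcy libraries at Pd21, with 1 symbol per replicate number. The sum of the 8 oviduct secretory genes runs from 90.0 to 527 FPKM in the controls and from 27.8 to 73.1 FPKM in F1-HHcy, while the ovarian list overlaps, from 1738 to 2246 FPKM. Ovgp1 makes up a large part of the control sums of the 8, and Emx2 most of their F1-HHcy sums.

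**Figure D5:**
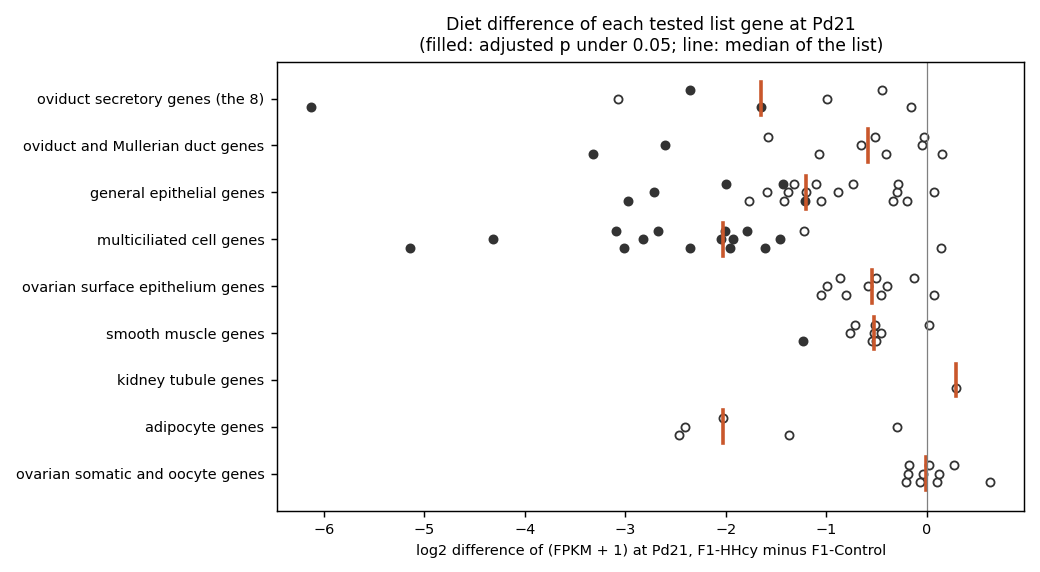
Difference of log2(FPKM + 1) at Pd21 between F1-HHcy and F1-Control for each tested gene of the 9 lists, with filled points for an adjusted p under 0.05 and a line at the median of the list. The medians were -2.03 for multiciliated and adipocyte genes, -1.65 for the 8 oviduct secretory genes and -0.01 for ovarian genes.

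The genes outside all lists whose pattern was most like that of Ovgp1, by Pearson's r of log2(FPKM + 1) over 18 libraries among 14517 genes, were Crocc2, Dnah6, Spata18, 3300002A11Rik and Klk11, with r from 0.967 to 0.971. Dnah6 encodes a dynein heavy chain of cilia and Crocc2 a protein of ciliary rootlets, while Klk11 encodes a secreted protease. Klk11 held 3.81, 1.63 and 4.35 FPKM in the Pd21 controls and did not exceed 0.0184 FPKM in F1-HHcy. For Ovgp1 the 3 Pd21 controls stand apart from the other 15 libraries, so these r mainly describe that split. Among the genes most like Pax8 were Mknk2, Rnf128, Prkcz and Rbm24, with lower r, from 0.897 to 0.915. Rnf128, which encodes a ubiquitin ligase, held 9.62, 4.91 and 30.4 FPKM in the controls and 2.43 to 2.59 FPKM in F1-HHcy. Among the 8 genes themselves, r over the 6 Pd21 libraries was 0.981 for Ovgp1 with Pax8, 0.983 with Muc1 and 0.940 with Wfdc2. For Ovgp1 it was 0.836 with Sox17, 0.743 with Pax2, 0.427 with Muc16 and 0.363 with Emx2. Over all 18 libraries the r of Ovgp1 with Pax8, Muc1 and Wfdc2 was lower, and of these it was lowest with Pax8. Ovgp1, Pax8, Muc1 and Wfdc2 lay without overlap between the diets at Pd21, while Sox17, Pax2, Muc16 and Emx2 overlapped. The r of Ovgp1 with Pax8, Muc1 and Wfdc2 at Pd21 may thus mainly describe the split between the diets. The r with Sox17 and Pax2 lay above those with Muc16 and Emx2 although all these genes overlapped. The part of the split in these r was not tested.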

How the data were processed

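RNA of 18 whole-ovary samples was sequenced by the authors from stranded poly-A libraries. The submitters' processing notes name FastQC 0.11.9, Trimmomatic 0.39, STAR 2.7.9a, featureCounts 2.0.1, Subread and DESeq2 1.36.0 with GRCm38; whether counting used strand is not given in the sources used here. What the authors deposited for each library is 1 linear value a gene, of unnamed unit, which was read as FPKM scaled by the authors to gene length and library depth. This reading rests on 1 length per gene that turned the values into whole fragments (within 0.03) for 30169 of 30172 symbols. No other per-sample column was left unused.

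Libraries were grouped by their labels. Diets were compared per age on log2(FPKM + 1) with a mean-variance trend, using limma (version 3.58.1, R 4.3.3), for genes reaching 1 FPKM in 3 or more libraries, with Benjamini-Hochberg adjustment over all genes tested. Differences between ages used 1 model of 18 libraries. Alternatives were no filter, a pseudocount of 0.1, median-ratio scaling, 1 model of all libraries, the replicate block, a looser criterion (unadjusted p under 0.05 and a log2 difference above 0.58 in size), each library left out and, chosen after seeing the data, limma-voom on the recovered fragments. The fits were tested on simulated data in which every gene had the same extra spread between libraries. That test does not cover genes that vary as widely as Ovgp1 in the Pd21 controls. The sums of lists were compared by exact permutation. Figures came from matplotlib 3.10.9 under Python 3.11.15.

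The 8 genes and all lists were chosen with earlier results of these data known. Named genes are the 8, the 3 most abundant genes of every other list at Pd21, and the 5 genes most correlated with Ovgp1 and with Pax8; Foxj1 is among the abundant ones, and Ltf, Des, Lhx1 and Nphs1 were named after their values were seen. Dnai1 was read under its older symbol Dnaic1, Slc22a6 was not analysed here, and some genes that the naming rule covers are not reported here. Precision is limited by 3 libraries per group, and fragments are not independent molecules, so counting limits cover counting error only.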

Additional observations from a re-analysis of the deposited data

Results flagged for a closer look

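In 6 results the diet difference itself differed between ages in the model of all 18 libraries (limma, adjusted p under 0.05), where age and batch cannot be told apart. Between Pd21 and Pd7 the difference was -7.35 on the log2 scale for Ovgp1 and -1.42 for Muc1. Between Pd21 and Pd3 it was -6.09 for Ovgp1, -2.22 for Pax8, -3.49 for Wfdc2 and -1.71 for Muc1. Ovgp1 kept these calls in all 18 fits that each left out 1 library, but limma-voom on the recovered fragments without the filter on low values did not call it between Pd21 and Pd3 (-7.12, adjusted p = 0.0822). Groups of 3 libraries were not examined for outlying samples.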

How the results depend on the processing

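Without the filter on low values, genes near 0 joined the fit and the count of called genes among the 8 was 0 at Pd7, 0 at Pd21 and 0 from Pd3 to Pd7 in F1-Control, 1 for the change of the diet difference from Pd7 to Pd21, 2 for that from Pd3 to Pd21, and 3 for the companion lists. With the looser criterion (unadjusted p) the counts were 2 at Pd7 and 5 at Pd21. One model of all 18 libraries gave 0 at Pd7 and 4 at Pd21. A pseudocount of 0.1 gave 1 for Pd21 against Pd7. limma-voom on the recovered fragments, chosen after seeing the data, gave 1 for Pd21 against Pd7 with and without the filter, and 2 (with) and 1 (without) for Pd21 against Pd3. Causes were not tested. Replicate numbers were not treated as pairs in the main fits. Same-numbered libraries of the 2 diets correlated from -0.34 to 0.09 in their deviations, and different-numbered ones from -0.18 to 0.31. With 3 libraries per group these values cannot exclude a pairing. With the replicate number as a block, 4 of the 8 were called at Pd21 (Wfdc2 added, adjusted p = 7.57e-04) and 34 companion genes (against 22), and it changed no other count by over 1.5 times.

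Leaving out 1 library gave from 0 to 1 called genes at Pd3, 0 to 1 at Pd7, 1 to 4 at Pd21, 1 to 4 for Pd21 against Pd7, 2 to 5 for Pd21 against Pd3, 0 to 1 from Pd3 to Pd7 in each diet, and 13 to 30 companion genes. The count at Pd21 was 1 without F1-Control replicate 1 or any F1-HHcy replicate. The companion count was 14 on leaving out either F1-Control replicate 1 or F1-HHcy replicate 2, and 13 on leaving out F1-Control replicate 3. Emx2 was called at Pd3 without F1-HHcy replicate 3 (-0.60, adjusted p = 0.0189). Uncalled differences turned sign in such fits: at Pd3 they ran from -0.36 to 0.14 for Ovgp1, -0.42 to 0.23 for Pax8, -0.40 to 1.01 for Wfdc2 and -0.12 to 0.30 for Muc1, at Pd7 from -0.31 to 0.44 for Muc16 and at Pd21 from -0.56 to 0.15 for Emx2. Each called diet difference of the 8 kept its direction in every fit run. Low fragment numbers limit Pax2 at all ages.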
